A study of Mus musculus with 12 samples.

Results

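Follicular B cells of the spleen from Jmjd1c KO mice were compared after 2 h with anti-IgM and at 0 h, across all genes. JMJD1C is a JmjC-domain protein of a histone demethylase family, and the series concerns autoimmunity and antibody production in heparin-induced thrombocytopenia. The comparison used 6 of the 12 libraries in the series: 3 of Jmjd1c KO at 2 h of anti-IgM and 3 of Jmjd1c KO at 0 h, as 1 library for each time from each of 3 KO animals. The other 6 libraries were WT at 2 h and WT at 0 h from 3 WT animals. They shared the fit, and so the estimate of spread behind the KO calls. They also served to ask whether the KO response differed, and their levels are given for some genes. The KO allele, what part of the gene it lacks, any Cre driver, the strain and the age of the mice could not be taken from the labels. No library was used for KO cells held 2 h without anti-IgM, so receptor cross-linking and time in culture cannot be told apart in any result.

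Anti-IgM is an antibody that cross-links surface IgM, the antigen receptor of a naive B cell, and stands in for antigen. Cross-linking activates the kinases LYN, SYK and BTK, and the signal branches into calcium release with NFAT, the RAS and ERK cascade, NF-kB and PI3K. Within the first hours immediate early transcription factors such as EGR proteins and MYC are induced, the cell leaves quiescence, and it begins to build ribosomes and metabolites before any DNA synthesis. FOXO and KLF2, which hold resting B cells in quiescence and direct their traffic, are turned off on the same path.

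Counts were totalled per gene symbol, and levels are given as CPM, a count scaled to a common total with TMM factors. A log2 change is 2 h over 0 h from edgeR's quasi-likelihood fit with the animal as a block and comes with its standard error (SE). Genes with an adjusted p below 0.05 were called. Totals were 5666013, 8959165 and 14153396 counts in KO 2 h replicates 1 to 3, against 11539103, 8847418 and 12461136 in KO 0 h. The targeted gene, Jmjd1c (chromosome 10, 67096351 to 67256326, GRCm38.p6), was at 208, 213 and 199 CPM in KO 2 h replicates 1 to 3, against 230.5, 236 and 196 CPM in KO 0 h. Its 6 KO values lay below all 6 WT values, which were 322, 294 and 269 CPM at 2 h and 360, 326 and 288 CPM at 0 h. Between the times in KO its log2 change was -0.09 ± 0.12 (SE, adjusted p = 0.585). The B cell genes Cd79a, Cd79b, Ms4a1 and Fcer2a were each at 224 CPM or more in all 6 KO libraries, and summed T cell markers were at 154, 187 and 241 CPM at 2 h and 155, 122 and 145 CPM at 0 h. Ighd was not analysed here.

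KO 2 h replicate 1 stood apart from the other libraries. Rn45s, the 45S ribosomal RNA precursor, took 52.3% of its counts (95% Wilson interval 52.29 to 52.37%, counting error only), which left 2700912 counts on other genes. In the other KO libraries Rn45s took 15.5% and 0.464% at 2 h in replicates 2 and 3, against 0.572%, 12.9% and 0.624% at 0 h. Mpo and Mki67 followed the same order of libraries. Mpo, a granule enzyme of myeloid progenitors, was at 444, 71.8 and 0.742 CPM in KO 2 h replicates 1 to 3, against 1.59, 49.9 and 1.73 CPM in KO 0 h, and Mki67, a marker of cycling cells, was at 529, 97.1 and 12.7 CPM in KO 2 h replicates 1 to 3, against 13.5, 67.2 and 14.5 CPM in KO 0 h. Per 1000 counts of Rn45s, Mpo had between 0.183 and 0.443 counts in all 12 libraries of the series, Lars2 between 75.7 and 90.6 and the RNA component Rmrp between 1.72 and 2.84. The ratio had a wider range for the progenitor gene Kit, between 0.123 and 0.977, and for the cycling genes Mki67 and Top2a, between 0.488 and 3.36 and between 0.214 and 4.29, and it was widest among these 7 genes for the B cell gene Ms4a1, between 0.274 and 195. A list of 20 haematopoietic progenitor markers, chosen after their values were seen, summed to 2420, 546 and 209 CPM in KO 2 h replicates 1 to 3, against 120, 380 and 123 CPM in KO 0 h. None of the 20 was at 0 in KO 2 h replicate 1, and the same held for WT 2 h replicate 1 and for replicate 2 of both genotypes at both times. Follicular B cell markers summed to 2470, 3980 and 4580 CPM at 2 h, against 5080, 4520 and 4910 CPM at 0 h. The part that these RNAs play in the results was not tested, and the counts in gene lists are also given without KO 2 h replicate 1. Xist was at 618 CPM at 2 h and 1180 CPM at 0 h in replicate 1 and at most 53.5 CPM in the other KO libraries. Differences between the animal of replicate 1 and the other KO animals thus cannot be told apart from sex. KO 0 h replicate 1, with 0.572% Rn45s, came from the same animal as KO 2 h replicate 1.

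**Figure D1:**
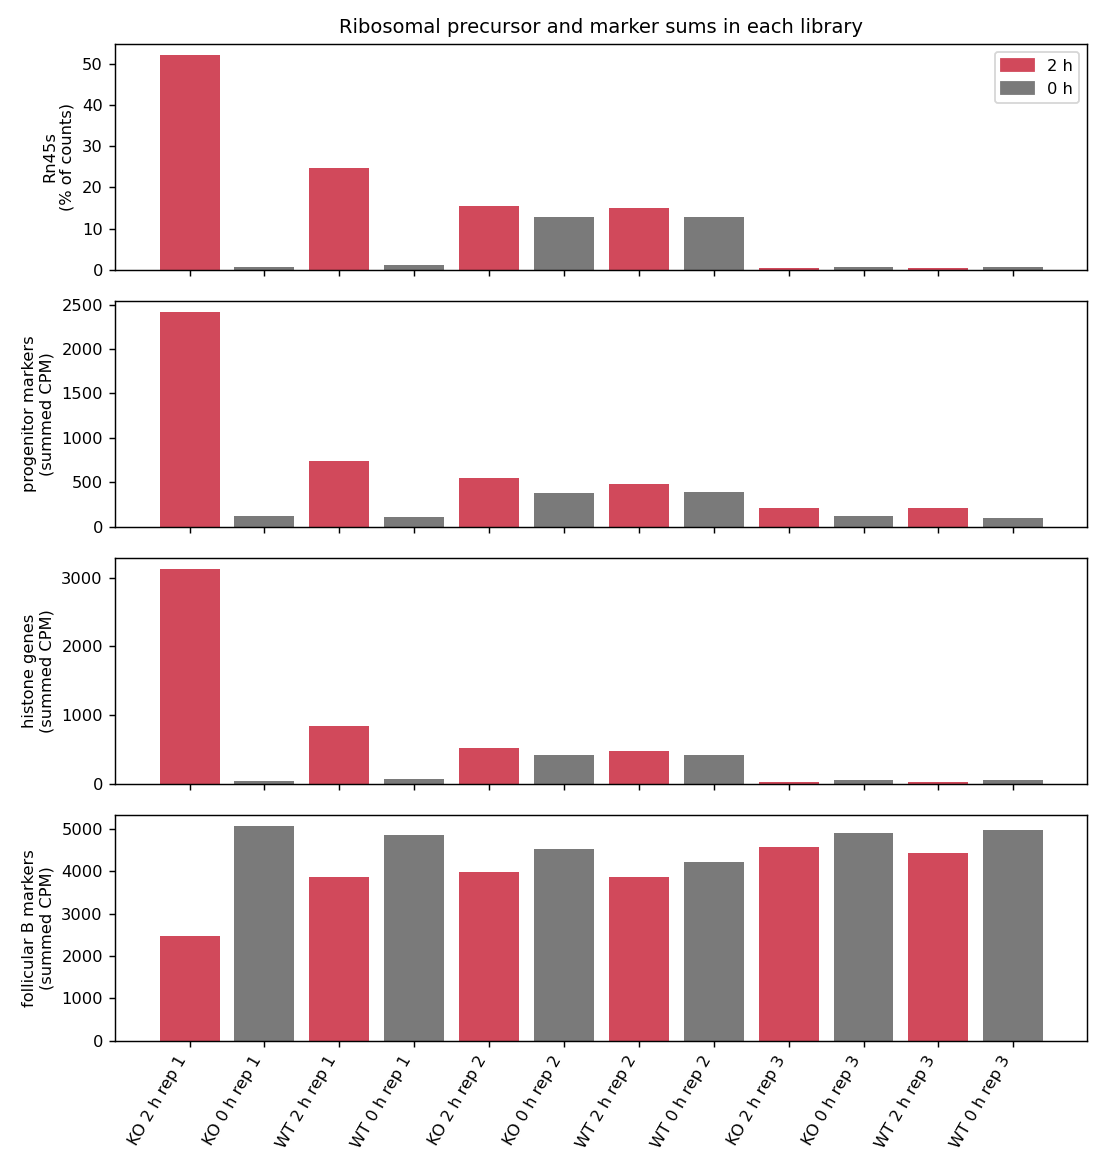
Bars show, for each of the 12 libraries, the share of counts on Rn45s in percent and the summed CPM of 20 haematopoietic progenitor markers, of the replication-dependent histone genes and of the follicular B cell markers, with 2 h in red and 0 h in grey. KO 2 h replicate 1 has the highest bar in the upper 3 panels and the lowest in the last, and the libraries of replicate 2 have a raised Rn45s share at both times.

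At 2 h, 3260 of the 12242 genes tested (26.6%) were called in KO, 1578 of them higher (12.9%) and 1682 lower (13.7%). A change of over 2-fold was found for 597 of the higher and 479 of the lower genes, and the median log2 change of all genes was 0.02. Of the called genes, 3252 (99.8%) moved the same way in all 3 animals and 8 moved the opposite way in animal 1, against 54.3% with the same sign over all genes tested; a call itself requires a change shared by the animals. The 3 KO 2 h libraries did not overlap the 3 KO 0 h libraries in CPM for 4595 genes (37.5%). Leaving out a 2 h library takes its animal out of the comparison. Without KO 2 h replicate 1, 3976 genes were called (31.8%), 2122 higher (17.0%) and 1854 lower (14.8%). Without KO 2 h replicate 2 the calls were 1173 (9.30%), 566 higher (4.49%) and 607 lower (4.81%), and without replicate 3 they were 2182 (17.7%), 893 higher (7.25%) and 1289 lower (10.5%). The KO change then rests on 2 animals in each case. The shares over all genes given here are the background for each list count below, with all libraries or with 1 left out. Where a count of risers or fallers in a gene list is followed by brackets, these hold the counts without KO 2 h replicate 1, 2 and 3, in that order, and brackets after a list's median hold its median likewise. In bulk RNA, fewer cells of a type and less RNA per cell cannot be told apart, and this holds for every gene that fell.

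The largest rise among genes with non-overlapping libraries was that of S1pr3, a receptor for sphingosine 1-phosphate, at 79.1, 193 and 120.4 CPM in KO 2 h replicates 1 to 3, against 8.93, 12.6 and 7.40 CPM in KO 0 h (chromosome 13, 51408618 to 51422797). Its log2 change was 3.72 ± 0.20 (SE, adjusted p = 0.00061). Every 2 h library lay above every 0 h library, with replicate 1 the lowest of the 2 h values. For S1pr3 and the other leading genes, the absence of overlap was a condition of their choice. Myc (chromosome 15, 61985341 to 61990361), the transcription factor that drives growth and ribosome production, was at 706, 1257 and 631 CPM in KO 2 h replicates 1 to 3, against 110.05, 125 and 73.8 CPM in KO 0 h, a log2 change of 3.04 ± 0.20 (SE, adjusted p = 0.000688). Egr2, an immediate early zinc finger factor (chromosome 10, 67534469 to 67542188), was at 155, 309.9 and 229 CPM in KO 2 h replicates 1 to 3, against 30.8, 35.7 and 23.7 CPM in KO 0 h, a log2 change of 2.91 ± 0.24 (SE, adjusted p = 0.000734). In both genes replicate 2 was the highest at 2 h and no 2 h value fell within the 0 h range. Ahr, a ligand-activated transcription factor, was at 45.7, 104 and 85.4 CPM in KO 2 h replicates 1 to 3, against 11.7, 9.05 and 7.26 CPM in KO 0 h and rose by 3.04 ± 0.36. Il4i1, a secreted amino acid oxidase, was at 605, 892 and 734 CPM in KO 2 h replicates 1 to 3, against 118, 94.7 and 119 CPM in KO 0 h and rose by 2.74 ± 0.21, and Nup62-il4i1, a readthrough transcript that shares its reads, rose by 2.72 ± 0.20.

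Hivep3, a zinc finger protein that binds kappa-B like sites (chromosome 4, 119733759 to 120138045), differed most between animals among the leading risers. It was at 30.1, 404 and 261 CPM in KO 2 h replicates 1 to 3, against 14.6, 27.1 and 14.3 CPM in KO 0 h, so that replicate 1 lay far below the other 2 h libraries and just above the 0 h ones. Its log2 change was 3.20 ± 0.60 (SE, adjusted p = 0.00819), 4.04 ± 0.24 (adjusted p = 6.61e-05) without KO 2 h replicate 1 and 2.74 (adjusted p = 0.0676) without replicate 2. Mreg, which acts in organelle transport, rose by 3.15 ± 0.26. Ccl4, a chemokine that attracts T cells, rose by 3.13 ± 0.39, and Vegfa, a vascular growth factor, by 2.70 ± 0.15. Ccl4 was at 58.5, 73.3 and 40.03 CPM in KO 2 h replicates 1 to 3, against 5.15, 5.20 and 8.66 CPM in KO 0 h, and Vegfa was at 41.6, 77.8 and 40.4 CPM in KO 2 h replicates 1 to 3, against 7.87, 9.73 and 6.33 CPM in KO 0 h. For both, the 3 animals lay on the same side by a wide margin and replicate 1 was within the range of the other 2 h libraries.

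The largest fall among genes with non-overlapping libraries was that of Cacna1i, a subunit of T-type calcium channels (chromosome 15, 80287238 to 80398292), at 20.97, 38.3 and 47.8 CPM in KO 2 h replicates 1 to 3, against 213, 282 and 260.2 CPM in KO 0 h, a log2 change of -2.85 ± 0.20 (SE, adjusted p = 0.000698). Icosl, which engages ICOS on helper T cells (chromosome 10, 78069368 to 78079525), was at 41.3, 46.2 and 80.7 CPM in KO 2 h replicates 1 to 3, against 340.4, 329.9 and 312 CPM in KO 0 h, a log2 change of -2.59 ± 0.23 (SE, adjusted p = 0.000793). For both genes the 2 h libraries were all below the 0 h libraries, with replicate 1 the lowest. Pik3c2b, a class II PI3-kinase, was at 43.3, 44.4 and 47.3 CPM in KO 2 h replicates 1 to 3, against 219, 266 and 176 CPM in KO 0 h and fell by 2.26 ± 0.16, with 2 h values within a narrow range. Further falls were measured for the kinase Map3k9 (-2.40 ± 0.33), the membrane carboxypeptidase M gene Cpm (-2.36 ± 0.24), Pmel (-2.23 ± 0.20), the amino acid transporter Slc43a2 (-2.21 ± 0.22), Fam101b (-2.17 ± 0.14) and Mylip, a ubiquitin ligase (-2.14 ± 0.19). Arrdc3, an arrestin-domain adaptor, was at 42.6, 56.7 and 106 CPM in KO 2 h replicates 1 to 3, against 383, 303 and 232 CPM in KO 0 h, and its log2 change of -2.21 ± 0.39 (SE, adjusted p = 0.00629) became -2.10 (adjusted p = 0.0511) without KO 2 h replicate 2. All 10 of these genes were lower at 2 h than at 0 h in each animal, which their choice for libraries without overlap fixed in advance.

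**Figure D2:**
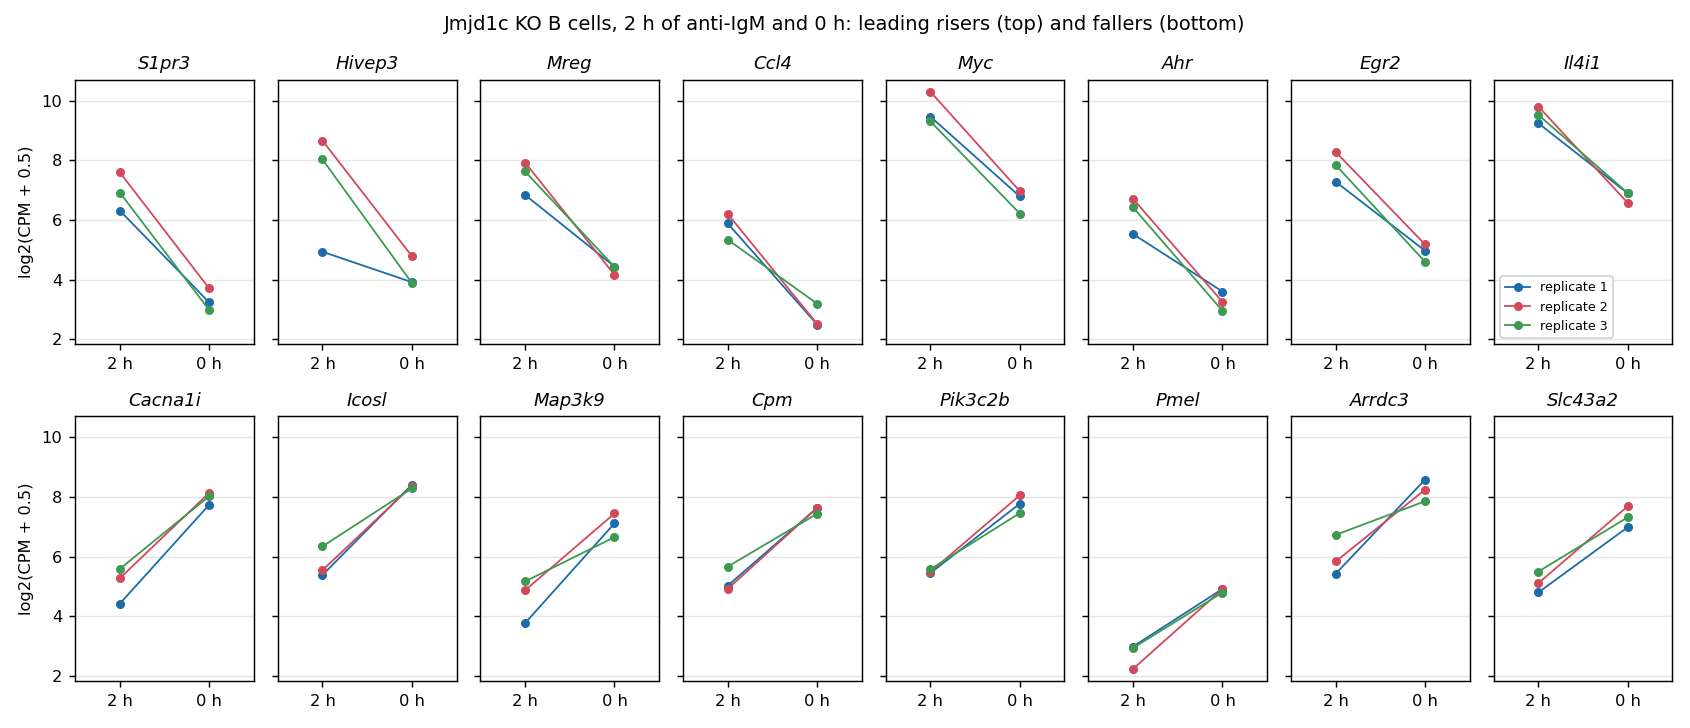
Each panel gives log2(CPM + 0.5) of 1 gene at 2 h and 0 h, with a line for each of the 3 KO animals, for 8 leading risers (top) and 8 leading fallers (bottom). All lines slope the same way within a row, as the choice of genes without overlap requires, and that of Hivep3 in replicate 1 is the flattest of the risers.

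Genes of the antigen receptor and its proximal kinases were lower where they were called with all libraries. Of 28 tested, 0 rose (5, 0, 0) and 12 fell (14, 4, 11), and the median log2 change was -0.52 (-0.38, -0.49, -0.62), against 0.02 over all genes. Syk, the kinase that binds the phosphorylated receptor (chromosome 13, 52582610 to 52648792), was at 357, 421 and 526 CPM in KO 2 h replicates 1 to 3, against 1328, 1413 and 1408 CPM in KO 0 h, a log2 change of -1.69 ± 0.15 (SE, adjusted p = 0.000818). The 2 h libraries lay well below the 0 h libraries, and replicate 1 was the lowest. The receptor chain Cd79a fell by 0.87 ± 0.14 and the kinase Lyn by 1.03 ± 0.15. The median of the list was -0.87, -0.44 and -0.18 in animals 1 to 3, so that it was lowest in the animal of KO 2 h replicate 1.

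Inhibitory receptors and phosphatases moved in both directions. Of 22 tested, 4 rose (5, 3, 3) and 11 fell (11, 7, 10), with a median of -0.49 (-0.36, -0.42, -0.59). Siglecg and Ceacam1, which carry inhibitory motifs, fell by 1.67 ± 0.13 and 1.98 ± 0.23, the adhesion receptor Pecam1 by 1.61 ± 0.19 and the ubiquitin ligase Cblb by 1.93 ± 0.16, while Cd5, an inhibitory coreceptor, rose by 1.67 ± 0.21. In the PI3K and AKT pathway 1 rose (1, 0, 1) and 7 fell (10, 3, 6) among 27, with a median of -0.39 (-0.33, -0.44, -0.52). Besides Pik3c2b, the regulatory subunit Pik3r2 fell by 0.74 ± 0.11 and the AKT target kinase Gsk3b by 0.77 ± 0.10. Among 25 genes of calcium channels, stores and NFAT, 1 rose (3, 1, 1) and 10 fell (10, 4, 7), with a median of -0.31 (-0.30, -0.29, -0.35). Orai1, the pore of the store-operated channel, was at 75.4, 102 and 55.8 CPM in KO 2 h replicates 1 to 3, against 22.8, 24.3 and 21.1 CPM in KO 0 h, a log2 change of 1.73 ± 0.15 (SE, adjusted p = 0.000768), and was the single riser of that list with all libraries. Its store sensor Stim1 fell by 0.99 ± 0.11, the release channel Itpr3 by 1.30 ± 0.15 and the calcineurin subunit Ppp3ca by 0.97 ± 0.12. Of 19 feedback regulators of the MAP kinase cascade, 3 rose (5, 2, 2) and 3 fell (2, 1, 1), with a median of -0.06 (-0.07, -0.08, -0.06). Over all genes tested, 12.9% rose and 13.7% fell. Dusp2, an ERK phosphatase, rose by 1.12 ± 0.14, and Rasa3, which inactivates RAS-family GTPases, fell by 2.04 ± 0.16 with 172, 190.03 and 190.2 CPM at 2 h against 725, 846 and 708 CPM at 0 h.

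Immediate early transcription factors were mostly higher where they were called. Of 31 tested, 15 rose (16, 11, 14) and 3 fell (3, 2, 2), and the median was 1.05 (0.78, 1.17, 1.47). Egr1, Egr3, Maff and Bhlhe40 rose by 1.91 ± 0.15, 2.19 ± 0.25, 2.54 ± 0.16 and 1.91 ± 0.18. Egr1 was at 379.8, 449.8 and 289 CPM in KO 2 h replicates 1 to 3, against 119, 126 and 62.6 CPM in KO 0 h, and Maff, a small MAF factor, was at 57.2, 82.6 and 44.05 CPM in KO 2 h replicates 1 to 3, against 12.9, 11.2 and 7.40 CPM in KO 0 h. In neither gene did the times overlap. Nr4a3, an orphan nuclear receptor, was at 28.1, 231 and 83.8 CPM in KO 2 h replicates 1 to 3, against 37.8, 33.03 and 22.7 CPM in KO 0 h, so replicate 1 lay inside the 0 h range while replicates 2 and 3 lay above it. Its log2 change was 1.54 ± 0.53 (SE, adjusted p = 0.0685) and 2.34 ± 0.22 (adjusted p = 0.000195) without KO 2 h replicate 1. Nr4a3 was called in the second case and not in the first. It was among the genes picked for a low change in animal 1. Of 25 NF-kB subunits and feedback genes, 7 rose (11, 4, 6) and 6 fell (6, 2, 6), with a median of 0.09 (0.36, 0.0016, 0.06). The inhibitors Nfkbid, Nfkbiz and Nfkbib and the adaptor Traf1 rose by 1.80 ± 0.16, 1.20 ± 0.19, 0.89 ± 0.14 and 1.44 ± 0.17, while Bcl3, a nuclear cofactor of the p50 and p52 subunits, fell by 1.42 ± 0.11 with 47.3, 55.4 and 46.8 CPM at 2 h against 132, 143 and 126 CPM at 0 h.

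Among 14 members of the BCL2 family, which set the threshold for cell death, 5 rose (5, 4, 5) and 2 fell (3, 1, 2), with a median of 0.02 (0.16, 0.08, 0.05). The survival genes Bcl2a1b and Bcl2l1 rose by 2.65 ± 0.12 and 2.00 ± 0.25, the death gene Bid by 1.10 ± 0.13, and the survival gene Bcl2 fell by 0.91 ± 0.13. Bcl2a1b was at 204, 147 and 141 CPM in KO 2 h replicates 1 to 3, against 32.1, 21.7 and 24.4 CPM in KO 0 h. It and Bcl2a1d, which rose by 2.66 ± 0.17, belong to a family of near-identical copies, so the split of reads between them is uncertain. Of 24 surface activation and costimulation genes, 6 rose (9, 1, 2) and 3 fell (2, 1, 3), with a median of 0.16 (0.35, 0.06, 0.22). Cd83, a surface marker of activated B cells, was at 882, 1936 and 1828 CPM in KO 2 h replicates 1 to 3, against 605, 574 and 392 CPM in KO 0 h, a log2 change of 1.51 ± 0.32 (SE, adjusted p = 0.0124). Its values without KO 2 h replicates 2 and 3 were 1.38 (adjusted p = 0.0851) and 1.15 (adjusted p = 0.0588). The ligand Icosl, described above, was among the 3 that fell.

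Of 20 cytokines and chemokines tested, 5 rose (5, 3, 5) and 3 fell (2, 2, 3), with a median of 0.16 (0.04, 0.10, 0.44). Besides Ccl4 and Vegfa, Ccl3 rose by 2.61 ± 0.44, while Ltb, the lymphotoxin beta chain that shapes lymphoid follicles, fell by 1.39 ± 0.16 and Il16 by 1.41 ± 0.17. Homing and positioning receptors were divided. Among 27, 6 rose (9, 4, 4) and 11 fell (11, 6, 12), with a median of -0.51 (-0.27, -0.53, -0.66). Gpr183, an oxysterol receptor that guides B cells to the outer follicle, was at 274, 420.1 and 383 CPM in KO 2 h replicates 1 to 3, against 99.2, 99.98 and 109 CPM in KO 0 h, a log2 change of 1.78 ± 0.18 (SE, adjusted p = 0.000949). In contrast to S1pr3, the related receptor S1pr4 fell by 1.60 ± 0.17. The integrin chains Itgb7 and Itga4, which pair with each other, fell by 1.70 ± 0.11 and 1.52 ± 0.17. In the 22 cytokine and BAFF receptors 1 rose (3, 1, 1) and 7 fell (7, 2, 6), with a median of -0.24 (0.01, -0.38, -0.46). Il1r1, a receptor chain for interleukin-1, was the single riser with all libraries, by 3.09 ± 0.21, with 18.6, 31.1 and 12 CPM at 2 h against 1.89, 4.30 and 1.33 CPM at 0 h. The interleukin-10 receptor chain Il10ra fell by 1.86 ± 0.21 and the interferon gamma receptor chain Ifngr2 by 1.23 ± 0.19.

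Ribosome production was the list with the largest share of risers. Of 60 genes of ribosome biogenesis and RNA polymerase I, 55 rose (59, 25, 36) and 0 fell (0, 0, 0), and the median was 1.14 (1.34, 0.94, 1.01). The median was 0.67, 1.45 and 1.30 in animals 1 to 3, so it was positive in each and smallest in animal 1. Nhp2, a protein of the H/ACA particles that modify ribosomal RNA, was at 170.5, 171 and 127 CPM in KO 2 h replicates 1 to 3, against 35.3, 36.5 and 29.6 CPM in KO 0 h, a log2 change of 2.20 ± 0.17 (SE, adjusted p = 0.000698). Pno1, which matures the small subunit, was at 77.4, 95.7 and 79.4 CPM in KO 2 h replicates 1 to 3, against 38.3, 33.8 and 28.2 CPM in KO 0 h and rose by 1.34 ± 0.14. Its 2 h values were close to each other and all lay above the 0 h values. Ltv1, a factor of small subunit export, was at 98.4, 118 and 103 CPM in KO 2 h replicates 1 to 3, against 49.4, 49.99 and 39.2 CPM in KO 0 h and rose by 1.21 ± 0.14. Nop2, a methyltransferase of the large subunit RNA, was at 135, 244 and 169.5 CPM in KO 2 h replicates 1 to 3, against 61.6, 72.2 and 59.04 CPM in KO 0 h and rose by 1.47 ± 0.17. The box C/D protein Nop58, the large subunit factor Mrto4, Rrp1b and the nucleolar Npm1 rose by 1.63 ± 0.17, 1.63 ± 0.16, 1.96 ± 0.21 and 1.40 ± 0.15. Of 11 genes of the MYC and MAX network itself, 1 rose (3, 1, 1) and 2 fell (3, 2, 2), with a median of -0.04 (-0.21, -0.08, -0.05). The risen gene was Myc, and the MYC antagonists Mxi1 and Mxd4 fell by 1.26 ± 0.15 and 1.36 ± 0.17.

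MYC with its partner MAX binds the E-box, CACGTG, which reads the same on both strands. The motif was searched in the promoters of the RefSeq table (250 bases before to 50 after the gene start, 1 promoter a gene, GRCm38.p6), and it was held by 7.24% of the 27025 promoters. Among tested genes with a promoter in the table it was found in 10.5% of 9125. The share was 17.7% of the 1203 genes called higher, 8.16% of the 1275 called lower and 9.66% of the 6647 not called. Of 52 ribosome biogenesis genes with a promoter, 13 (25%) held it, and 11 of these were called higher. Of all 60 tested members of that list, with the motif or not, 55 were called higher. These shares describe letters in a window and show no binding. The promoters of Pno1, Ltv1 and Nop2 are printed as examples of risen genes that hold 1 motif each, with the E-box in capitals, 5′ to 3′ on the gene's strand. The first lies at chr11:17211540-17211839, minus strand, the second at chr10:13193088-13193387, minus strand and the third at chr6:125131633-125131932, plus strand.
Pno1: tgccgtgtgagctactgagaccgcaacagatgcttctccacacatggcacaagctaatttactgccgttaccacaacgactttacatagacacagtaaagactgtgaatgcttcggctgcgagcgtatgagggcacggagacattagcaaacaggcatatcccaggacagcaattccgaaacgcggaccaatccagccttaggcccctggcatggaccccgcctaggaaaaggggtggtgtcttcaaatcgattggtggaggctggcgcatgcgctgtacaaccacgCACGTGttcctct
Ltv1: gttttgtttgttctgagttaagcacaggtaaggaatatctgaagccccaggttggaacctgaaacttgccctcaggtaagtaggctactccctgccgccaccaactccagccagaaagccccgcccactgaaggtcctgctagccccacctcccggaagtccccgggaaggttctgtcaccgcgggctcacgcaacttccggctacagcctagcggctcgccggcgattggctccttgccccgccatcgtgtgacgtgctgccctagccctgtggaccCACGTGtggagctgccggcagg
Nop2: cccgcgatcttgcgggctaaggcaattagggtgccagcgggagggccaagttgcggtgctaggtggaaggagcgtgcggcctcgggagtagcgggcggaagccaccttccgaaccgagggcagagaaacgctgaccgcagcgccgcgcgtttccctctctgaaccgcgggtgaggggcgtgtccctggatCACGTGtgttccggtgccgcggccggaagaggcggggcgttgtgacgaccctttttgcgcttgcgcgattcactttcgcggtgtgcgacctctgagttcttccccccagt
The motif begins at base 288 of the window in Pno1, at base 279 in Ltv1 and at base 191 in Nop2, counted from 1 at the 5′ end, so it lies downstream of the start in the first 2 and upstream in Nop2.

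Genes that supply translation were also higher where called. Of 36 translation factors, 23 rose (27, 9, 16) and 0 fell (0, 0, 0), with a median of 0.74 (0.80, 0.62, 0.72). Eif4e, the cap-binding protein, and its helicase partner Eif4a1 rose by 1.13 ± 0.15 and 1.23 ± 0.16, and Eif1a by 1.23 ± 0.14. Eif4e was at 79.8, 99.8 and 88.3 CPM in KO 2 h replicates 1 to 3, against 44.4, 40.4 and 38.1 CPM in KO 0 h. Among 35 genes of tRNA charging, amino acid transport and serine synthesis, 19 rose (27, 8, 9) and 0 fell (0, 0, 0), with a median of 0.78 (1.02, 0.73, 0.72). The transporter chains Slc7a5 and Slc3a2, which form 1 complex, rose by 2.15 ± 0.32 and 1.07 ± 0.15, and Psat1 of serine synthesis by 1.66 ± 0.15. Slc7a5 was at 130.2, 417 and 245 CPM in KO 2 h replicates 1 to 3, against 52.4, 61.3 and 48.6 CPM in KO 0 h, with replicate 1 the lowest of the 2 h libraries and above all 0 h libraries. Of 77 cytosolic ribosomal proteins, 14 rose (9, 0, 3) and 0 fell (0, 0, 0), with a median of 0.38 (0.22, 0.46, 0.44). The number of risers was 40 in DESeq2, 25 in limma-voom, 4 with no count filter and 0 with only the 6 KO libraries. Counts of these genes are uncertain, since many have processed pseudogenes. Of 10 host transcripts of small nucleolar RNAs, 8 rose (7, 4, 5) and 0 fell (0, 0, 0), with a median of 0.76 (0.61, 0.87, 0.80), and Snhg1 and Snhg4 rose by 1.23 ± 0.12 and 1.99 ± 0.24.

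Biosynthetic enzymes were mostly higher where called. Among 42 genes of polyamine and nucleotide synthesis, 27 rose (30, 16, 22) and 1 fell (1, 1, 1), with a median of 0.84 (0.86, 0.70, 0.88). Srm, spermidine synthase, was at 106, 175 and 115 CPM in KO 2 h replicates 1 to 3, against 23.3, 24.4 and 20.9 CPM in KO 0 h, a log2 change of 2.50 ± 0.24 (SE, adjusted p = 0.0009). Shmt1 and Mthfd2 of one-carbon metabolism rose by 2.26 ± 0.22 and 2.03 ± 0.22, Umps of pyrimidine synthesis by 1.31 ± 0.11 and the nucleoside diphosphate kinase Nme1 by 1.78 ± 0.17. Of 38 genes of cholesterol and fatty acid synthesis, 16 rose (19, 11, 13) and 3 fell (4, 1, 1), with a median of 0.60 (0.53, 0.46, 0.70). The sterol enzymes Sqle, Cyp51, Msmo1 and Hmgcs1 rose by 1.94 ± 0.16, 1.91 ± 0.16, 1.82 ± 0.14 and 1.76 ± 0.19. Of 31 glycolysis and hypoxia genes, 8 rose (7, 4, 8) and 2 fell (3, 1, 2), with a median of 0.15 (0.03, 0.29, 0.36). Hk2, a hexokinase, was at 69.7, 76.2 and 45.5 CPM in KO 2 h replicates 1 to 3, against 10.4, 17.98 and 10.4 CPM in KO 0 h, a log2 change of 2.31 ± 0.22 (SE, adjusted p = 0.000858), and the lactate transporter Slc16a1 and Ldha rose by 2.25 ± 0.18 and 1.57 ± 0.18. Of 7 pentose phosphate pathway genes, 2 rose (1, 1, 2) and 0 fell (0, 0, 0), with a median of 0.29 (0.26, 0.30, 0.30). Tkt, transketolase, rose by 0.96 ± 0.15.

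Among 50 respiratory chain genes of the nucleus, 19 rose (15, 7, 14) and 0 fell (0, 0, 0), with a median of 0.47 (0.27, 0.52, 0.57). Uqcrq of complex III rose by 1.25 ± 0.17 and cytochrome c, Cycs, by 0.94 ± 0.14. Among 76 mitochondrial ribosomal proteins, 36 rose (31, 11, 16) and 1 fell (2, 0, 1), with a median of 0.44 (0.39, 0.43, 0.48), led by Mrpl12 and Mrpl17 at 1.49 ± 0.14 and 1.41 ± 0.13. The mitochondrially encoded genes were not analysed here. Of 38 chaperones, 23 rose (29, 7, 14) and 0 fell (0, 0, 0), with a median of 0.54 (0.63, 0.46, 0.56). The mitochondrial pair Hspd1 and Hspe1 rose by 1.37 ± 0.17 and 1.01 ± 0.13 and the cytosolic Hsp90ab1 by 1.02 ± 0.15. Among 42 proteasome genes, 24 rose (26, 8, 14) and 0 fell (3, 0, 0), with a median of 0.44 (0.42, 0.40, 0.43), and Psme2, a subunit of the activator, rose by 1.14 ± 0.14. Of 27 tested genes that act in the unfolded protein response, or UPR, 8 rose (9, 3, 5) and 2 fell (2, 1, 2), with a median of 0.16 (0.17, 0.22, 0.17). The transcription factor Ddit3 and the chaperone Hspa5 rose by 1.25 ± 0.17 and 0.94 ± 0.14, while the sensor kinase Eif2ak3 fell by 1.38 ± 0.18. Of 42 nuclear pore and transport genes, 15 rose (26, 7, 8) and 1 fell (1, 0, 1), with a median of 0.31 (0.54, 0.20, 0.25), and the GTPase Ran, its partner Ranbp1 and the importin Kpna2 rose by 1.26 ± 0.13, 1.31 ± 0.12 and 1.16 ± 0.10. Of 40 lysosome and autophagy genes, 8 rose (12, 3, 5) and 6 fell (8, 4, 5), with a median of 0.01 (0.01, 0.06, -0.06), where 12.9% of all genes tested rose and 13.7% fell.

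**Figure D3:**
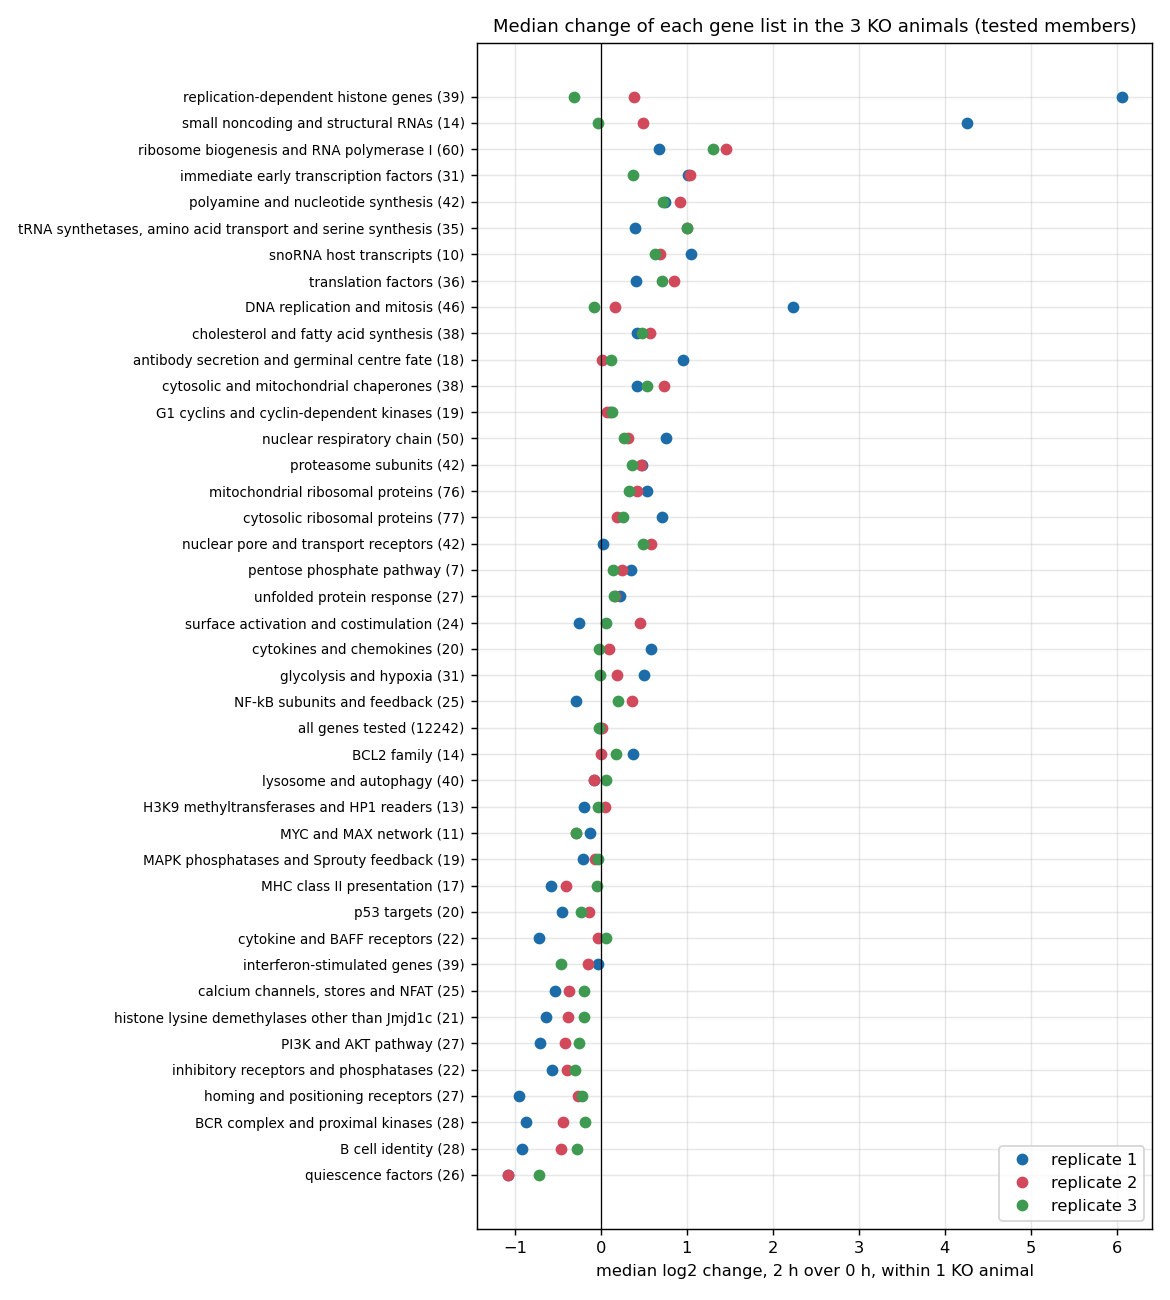
Points give the median log2 change at 2 h over 0 h of the tested members of each gene list, as TMM-scaled log2(CPM + 0.5) within each of the 3 KO animals, with the number of members in brackets. Ribosome biogenesis lies right of 0 in all 3 animals and quiescence factors left of it, while replication-dependent histone genes are at 6.06 in replicate 1 and near 0 in the others.

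Quiescence factors were lower where they were called with all libraries. Of 26 tested, 0 rose (3, 0, 0) and 15 fell (15, 13, 15), with a median of -0.89 (-0.88, -0.93, -1.02), and the medians were -1.08, -1.08 and -0.72 in animals 1 to 3. Klf2, which keeps lymphocytes resting and directs their homing, was at 138, 92.1 and 131 CPM in KO 2 h replicates 1 to 3, against 412, 328 and 347 CPM in KO 0 h, a log2 change of -1.60 ± 0.16 (SE, adjusted p = 0.000966). Rbl2, the pocket protein p130, was at 46.3, 46.0 and 54.4 CPM in KO 2 h replicates 1 to 3, against 123, 132 and 131 CPM in KO 0 h, a log2 change of -1.40 ± 0.12 (SE, adjusted p = 0.000749). In both genes every 2 h library was below every 0 h library. The cyclin-dependent kinase inhibitor Cdkn1b fell by 1.39 ± 0.15, the glucocorticoid-induced Tsc22d3 by 1.48 ± 0.18, the thioredoxin-binding Txnip by 1.91 ± 0.24, Ypel3 by 1.39 ± 0.14 and Klf13 by 1.47 ± 0.15. Among 19 G1 cyclins and cyclin-dependent kinases, 5 rose (5, 2, 3) and 4 fell (5, 3, 3), with a median of 0.50 (0.08, 0.38, 0.51). Cdk4, the kinase of early G1, was at 184, 180.01 and 175 CPM in KO 2 h replicates 1 to 3, against 69.2, 67.5 and 73.5 CPM in KO 0 h and rose by 1.36 ± 0.13. Cdk2 and the factor E2f2 fell by 0.62 ± 0.10 and 1.41 ± 0.25, and Ccng2 by 1.27 ± 0.19.

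Genes of DNA replication and mitosis gave few calls. Of 46 tested, 3 rose (2, 1, 3) and 0 fell (3, 0, 0), and the median was 0.67 (0.06, 1.06, 1.20). The medians of 2.24, 0.16 and -0.08 in animals 1 to 3 show that the difference lay in animal 1. Pcna, the sliding clamp of DNA polymerase, was the member with the smallest p, at 210.4, 178 and 176 CPM in KO 2 h replicates 1 to 3, against 89.1, 76.2 and 78.6 CPM in KO 0 h, a log2 change of 1.21 ± 0.10 (SE, adjusted p = 0.000783) and 1.19 ± 0.10 (adjusted p = 0.000171) without KO 2 h replicate 1. Its replicate 1 value was close to those of the other 2 h libraries. Mki67, at a log2 change of 1.61 ± 1.25 (SE, adjusted p = 0.378), was not called. Replication-dependent histone genes, whose transcripts normally lack a poly(A) tail, summed to 3130, 527 and 25.3 CPM in KO 2 h replicates 1 to 3, against 37.3, 414 and 49.6 CPM in KO 0 h. Of 39 tested, 0 rose (0, 2, 0) and 1 fell (1, 0, 1), with a median of 2.43 (0.20, 5.44, 3.38). By animal the median was 6.06, 0.38 and -0.32.

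Genes of B cell identity were mostly lower where called. Of 28 tested, 1 rose (4, 0, 0) and 13 fell (13, 7, 13), with a median of -0.67 (-0.24, -0.67, -0.71). Ets1, a factor that restrains plasma cell formation, was at 287, 396 and 605 CPM in KO 2 h replicates 1 to 3, against 1249, 1473 and 1285 CPM in KO 0 h, a log2 change of -1.70 ± 0.22 (SE, adjusted p = 0.00219). The factors Tcf3, Foxo1, Pou2f2 and Pou2af1 fell by 1.36 ± 0.12, 1.02 ± 0.14, 0.99 ± 0.14 and 0.98 ± 0.15. Follicular B cell markers gave 0 risers and 3 fallers among 8, against 3 and 3 without KO 2 h replicate 1, with a median of -0.28 against 0.19. Cr2, the complement receptor CD21, was at 115, 312 and 239 CPM in KO 2 h replicates 1 to 3, against 135, 123 and 112 CPM in KO 0 h, where replicate 1 overlapped the 0 h libraries and the others did not. Its log2 change was 0.76 ± 0.34 (SE, adjusted p = 0.14) and 1.22 ± 0.24 (adjusted p = 0.00572) without that library. Of 14 marginal zone and B1 cell markers, 3 rose (5, 2, 3) and 4 fell (4, 1, 2), with a median of 0.42 (-0.0034, 0.45, 0.36). S1pr3 and Cd5 were among the risers and the receptor Notch2, at 259, 296 and 289 CPM at 2 h against 951, 994 and 925 CPM at 0 h, was among the fallers with a change of -1.77 ± 0.13.

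Among 18 genes of antibody secretion and germinal centre fate, 3 rose (3, 2, 2) and 2 fell (2, 0, 2), with a median of 0.57 (0.04, 0.84, 0.88). Irf4, the factor whose dose sets B cell fate, was at 849.6, 2375 and 1687 CPM in KO 2 h replicates 1 to 3, against 449.7, 408 and 294 CPM in KO 0 h, a log2 change of 2.01 ± 0.33 (SE, adjusted p = 0.00514). Replicate 1 was the lowest 2 h library and still above every 0 h library. Batf, which pairs with IRF4 on DNA, rose by 1.37 ± 0.15. For MHC class II presentation, with 17 genes tested, 0 rose (1, 0, 0) and 6 fell (6, 4, 6), with a median of -0.19 (-0.15, -0.27, -0.40). The peptide exchange chains H2-DMa, H2-DMb2 and H2-DMb1 fell by 0.98 ± 0.16, 1.13 ± 0.18 and 0.92 ± 0.16, and the lysosomal reductase Ifi30 by 1.23 ± 0.14.

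Because the targeted gene encodes a JmjC protein, the other histone lysine demethylases were followed in the same cells. Of 21 tested, 2 rose (3, 0, 1) and 9 fell (9, 3, 7), with a median of -0.37 (-0.27, -0.42, -0.47). Kdm7a, which acts on repressive methyl marks of histone H3, was at 71.02, 115 and 138 CPM in KO 2 h replicates 1 to 3, against 384, 373 and 305 CPM in KO 0 h, a log2 change of -1.74 ± 0.23 (SE, adjusted p = 0.00218). Kdm2a, a nucleosome-binding demethylase, and Phf8 fell by 0.83 ± 0.13 and 0.83 ± 0.15. Kdm2b, the paralog of Kdm2a, was at 141, 472 and 275 CPM in KO 2 h replicates 1 to 3, against 92.04, 109 and 78.1 CPM in KO 0 h, a log2 change of 1.53 ± 0.28 (SE, adjusted p = 0.00742) and 1.22 (adjusted p = 0.0554) without KO 2 h replicate 2. The pair of paralogs thus differed in direction. Kdm3b, of the same subfamily as Jmjd1c, had a log2 change of -0.57 ± 0.13 (SE, adjusted p = 0.015) and -0.63 (adjusted p = 0.0736) without KO 2 h replicate 2. Of 13 H3K9 methyltransferases and HP1 readers, 2 rose (3, 1, 1) and 2 fell (3, 2, 2), with a median of -0.02 (-0.02, -0.07, 0.01). Both counts were near the shares over all genes tested, where 12.9% rose and 13.7% fell. Suv39h2 was at 21.3, 42.4 and 30.3 CPM in KO 2 h replicates 1 to 3, against 9.99, 11.99 and 10.9 CPM in KO 0 h and rose by 1.48 ± 0.15, while the SETDB1 cofactor Atf7ip and Setdb2 fell by 1.27 ± 0.18 and 1.09 ± 0.17.

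Interferon-stimulated genes gave no riser. Of 39 tested, 0 rose (0, 0, 0) and 10 fell (9, 5, 8), with a median of -0.29 (-0.36, -0.35, -0.13). The RNA sensor Ddx58 and its ligase Trim25 fell by 1.23 ± 0.16 and 1.40 ± 0.15, and Stat2 and Irf7 by 0.89 ± 0.14 and 0.94 ± 0.18. Of 20 p53 targets, 4 rose (4, 2, 3) and 6 fell (5, 2, 5), with a median of -0.20 (-0.25, -0.26, -0.24). The kinases Plk2 and Plk3 rose by 1.37 ± 0.24 and 1.53 ± 0.23, while the antiproliferative Btg2 and the stress protein Sesn1 fell by 1.19 ± 0.16 and 1.09 ± 0.17.

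Markers of other cells were read beside these results. Of 12 T cell markers, 1 rose (1, 0, 0) and 1 fell (1, 0, 0), with a median of -0.27 (0.01, -0.58, -0.40). Lck was at 90.6, 121 and 152 CPM in KO 2 h replicates 1 to 3, against 54.6, 41.1 and 40.9 CPM in KO 0 h, a log2 change of 1.41 ± 0.28 (SE, adjusted p = 0.0105) and 1.32 (adjusted p = 0.0724) without KO 2 h replicate 2, and 1.15 (adjusted p = 0.0588) without replicate 3. Lck is also expressed by some B cells. Among 9 NK cell markers the smallest adjusted p in edgeR was 0.224, for Prf1, and among 8 red cell and platelet markers it was 0.453, for Hbb-bt. The whole red cell and platelet list summed to 173, 57.8 and 21.2 CPM in KO 2 h replicates 1 to 3, against 36.6, 81.3 and 29.5 CPM in KO 0 h. Among 12 monocyte, macrophage and neutrophil markers the smallest adjusted p in edgeR was 0.106, for Mpeg1. The whole list summed to 623, 160 and 103 CPM in KO 2 h replicates 1 to 3, against 105, 129 and 151 CPM in KO 0 h. Mpo, described above, is a member of this list. It alone gave 444, 71.8 and 0.742 CPM at 2 h, against 1.59, 49.9 and 1.73 CPM at 0 h. Plasma cell markers summed to 197, 147 and 212 CPM at 2 h, against 246, 213 and 258 CPM at 0 h.

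Leaving out KO 2 h replicate 1 kept 2954 of the 3260 calls, all in the same direction. It ended 306 calls, 138 of higher and 168 of lower genes, and it added 1022, 682 of them higher and 340 lower. Several list medians also changed. Without that library the median was 0.06 for DNA replication and mitosis, against 0.67 with all libraries. It was 0.04 against 0.57 for antibody secretion and germinal centre fate, and 0.08 against 0.50 for G1 cyclins and kinases. It was -0.0034 against 0.42 for marginal zone and B1 cell markers, and 0.015 against -0.24 for cytokine and BAFF receptors. For T cell markers it was 0.01 against -0.27, for cytokines and chemokines 0.04 against 0.16, and for glycolysis and hypoxia 0.03 against 0.15. Across genes, the changes in animals 2 and 3 correlated at 0.779, those in animals 1 and 2 at 0.396 and those in animals 1 and 3 at 0.211 (Pearson, over 12242 genes that share their libraries). The change in animal 1 correlated at 0.817 with that of the WT animal given the same batch in the labels, whose 2 h library had 24.8% Rn45s. The changes had an SD across genes of 1.29 in animal 1, against 0.715 and 0.621 in animals 2 and 3. In Rn45s itself the change in animal 1 exceeded the mean of the others by 7.63. Among the other genes with a mean log2 CPM of 3 or more, genes that the naming rules leave out aside, the 8 whose change in animal 1 most exceeded that in the others were Rpph1, Mpo, Rmrp, Mir6236, Lars2, Hist1h1d, Muc13 and Selp. Rpph1, the RNA of RNase P, was at 2478, 399 and 6.25 CPM in KO 2 h replicates 1 to 3, against 8.70, 293 and 7.73 CPM in KO 0 h, with per-animal log2 changes of 8.07, 0.45 and -0.29. Hist1h1d, a linker histone gene, was at 256, 44.2 and 0.495 CPM in KO 2 h replicates 1 to 3, against 0.908, 31.3 and 0.733 CPM in KO 0 h. In both, replicate 2 was raised at both times and replicate 3 at neither.

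By the same rule, the genes whose change in animal 1 lay furthest below that in the others were Hivep3, Cacna1e, Nr4a3, Kcnh4, Nr6a1, Adamts6, Tlr9 and Hcrtr2. Tlr9, the endosomal sensor of CpG DNA, was at 18.6, 121 and 144 CPM in KO 2 h replicates 1 to 3, against 74.9, 111 and 97.03 CPM in KO 0 h, with changes of -1.98, 0.12 and 0.56. Cacna1e, a voltage-gated calcium channel subunit, was at 8.46, 60.8 and 47.02 CPM in KO 2 h replicates 1 to 3, against 87.2, 99.2 and 49.05 CPM in KO 0 h, with changes of -3.29, -0.70 and -0.06. Of these 8 genes, Nr4a3, Nr6a1, Adamts6 and Hcrtr2 were not called with all libraries and were called without KO 2 h replicate 1, at 2.34 ± 0.22 (adjusted p = 0.000195), 1.96 ± 0.37 (adjusted p = 0.00445), 0.85 ± 0.28 (adjusted p = 0.0452) and 0.94 ± 0.21 (adjusted p = 0.00864). The 8 genes were chosen for a low change in animal 1, so higher estimates without its 2 h library follow from their choice. When KO 2 h replicate 3 was the library left out, the log2 change was -0.46 for Adamts6 and -0.34 for Hcrtr2, and neither was called. The haematopoietic progenitor list, chosen after its values were seen, had a median change of 5.52, 0.51 and -0.07 in animals 1 to 3. With all libraries 2 of its 20 members were called higher, against 12.9% of all genes tested. Small noncoding and structural RNAs had median changes of 4.26, 0.49 and -0.03 in the same animals.

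**Figure D4:**
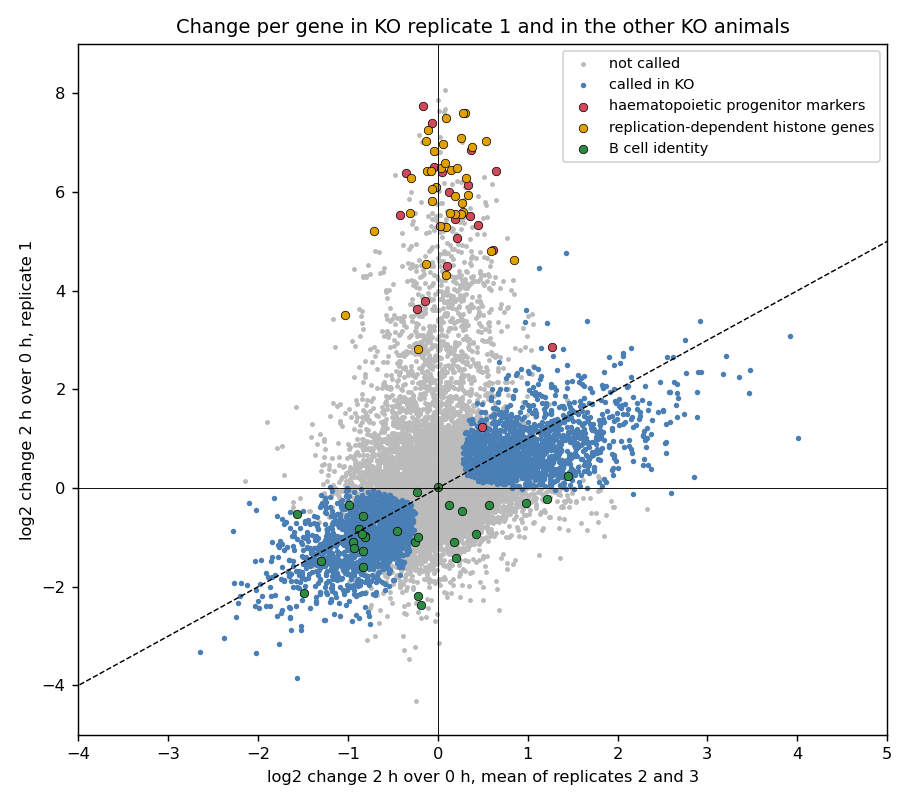
Each point is a tested gene, with the log2 change at 2 h over 0 h in KO replicate 1 on the vertical axis and the mean change of KO replicates 2 and 3 on the horizontal axis, and a dashed line where both are equal. Blue points are called genes, which lie mostly along the line, while progenitor markers and histone genes rise above it at about 0 on the horizontal axis and many B cell identity genes lie below it. The progenitor markers were chosen after their values were seen.

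Whether the KO response differed from that of WT cells was tested as the difference between the responses in the same fit. No gene was called in edgeR (0 of 12242, 0%), in DESeq2 or in limma-voom, and 87, 43 and 154 genes had an unadjusted p under 0.05. Each of these counts is below a share of 0.05 of the genes tested, which evenly spread p-values would give. Of the 3260 genes called in KO, 3255 had the same sign in WT. The share with the same sign over all genes tested was not computed, so this count has no background. For S1pr3 the log2 change was 3.72 ± 0.20 in KO and 4.02 ± 0.20 in WT, and for Myc it was 3.04 ± 0.20 in KO and 3.23 ± 0.20 in WT. The difference of KO minus WT was -0.30 ± 0.26 for S1pr3, -0.19 ± 0.27 for Myc and -0.22 ± 0.21 for Syk. The genes with the smallest unadjusted p for a higher change in KO were Mrps14 (0.50 ± 0.15), Lancl1 (0.48 ± 0.16), Pdcd5 (0.46 ± 0.15), Ncoa4 (0.40 ± 0.14) and Ndufs8 (0.42 ± 0.15). Those for a lower change in KO were Cd44 (-0.46 ± 0.14), Rbl2 (-0.51 ± 0.16), Tbx6 (-1.14 ± 0.37), Arhgef11 (-0.63 ± 0.21) and Fam102b (-0.47 ± 0.16), and all 10 had an adjusted p = 0.999 in edgeR. A p that misses the threshold does not show that the responses are alike: the SE of a difference among these 10 genes was between 0.14 and 0.37. These genes were picked for a small p, and the SE was wider for others, such as 0.55 for Ccl4 and 0.77 for Hivep3.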

How the data were processed

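The authors deposited raw counts per gene symbol, 1 file for each of the 12 libraries. Per the labels' protocols, poly(A) RNA of sorted splenic follicular B cells was selected with magnetic beads and made into libraries with an NEBNext Ultra RNA kit. STAR and mm10 are the aligner and build named, per the submitters' processing notes. How genes were counted, with which strand setting and annotation, is not stated in these sources, so overlapping and antisense genes, and near-identical copies, cannot be told apart.

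The files list 24046 symbols, 27 of them in the form of dates, and 94.4% of tested symbols matched the RefSeq genes of GRCm38.p6. The filterByExpr filter over 4 groups left 12242 genes, which were scaled with TMM factors (0.522 to 1.20), Rn45s included. The deposited counts of all 12 libraries were fitted in edgeR 4.0.16 (R 4.3.3, quasi-likelihood F test, two-sided) with the 6 animals as a block and a 2 h effect in each genotype, leaving 4 residual degrees of freedom. P-values were adjusted over all genes with the Benjamini-Hochberg method. The SE was derived from the F statistic, and changes per animal used log2(CPM + 0.5), computed here.

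Library names in the labels give the animal, and each KO animal gave both times, so replicate numbers pair the samples. Correlations of deviations from group means within an animal were -0.374, 0.196 and 0.468 in KO animals 1 to 3. Between different KO animals they ranged from -0.696 to 0.497, the highest for KO 2 h replicate 1 with KO 0 h replicate 2. The pairing therefore rests on the labels and not on these values. No pair within a group agreed within sampling noise, with a chi-square per degree of freedom of 13.1 or more. A count of 0 allows 3 counts, or 0.183 to 1.01 CPM by library, which covers counting error only.

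Genes were named by rules: the targeted gene and Rn45s, the 10 largest called rises and falls without overlap at a mean log2 CPM of 3 or more, up to 5 members with the smallest p in a list or others where their list is described, 8 genes a side for animal 1, and 5 a side for the difference between genotypes. Predicted, receptor segment, Xist and Y-linked genes were not named under these rules. Some genes that the rules would name are not reported here. Members and lists were chosen with earlier results of these data known. The fit was tested on simulated data. Alternatives used limma 3.58.1 and DESeq2 1.42.0, other scalings and filters, no block, and libraries left out.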

Additional observations from a re-analysis of the deposited data

How the results depend on the processing

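The count of 3260 called genes became 3316 without the animal block, 2945 of them shared with the paired fit and all of these in the same direction, and among the named genes Cd44 was called only with the block and Nr4a3 only without it. It was 1166 when only the 6 KO libraries were fitted, where fewer residual degrees of freedom and 11818 genes were available. Leaving out 1 KO library at a time gave between 1173 and 3976 calls, the lowest without KO 2 h replicate 2 and the highest without KO 2 h replicate 1. Leaving out 1 WT library at a time gave between 2259 and 2630 calls in KO, since the WT libraries share the estimate of spread. With neither 2 h library of batch 1, the batch given in the labels, the count in KO was 4893, and the cause was not tested. Fits with RLE size factors, DESeq2 or limma-voom, Rn45s taken out, no count filter or a minimum of 1 CPM in 6 libraries gave between 2701 and 4599. Calls for the difference between genotypes stayed at 0 under every setting in which it was fitted, with 26 to 377 genes at an unadjusted p under 0.05. No named gene that was called with all libraries reversed its direction. Of 24 named genes that were not called, 9 had the other sign under at least 1 setting, among them Tlr9 (-0.29, and 0.35 without KO 2 h replicate 1), Selp (1.38 and -0.32), Lancl1 (0.01 and -0.05) and Ms4a1 (-0.23 and 0.19). Of 98 counts of risers or fallers in the gene lists, 16 moved by over 1.5 times in DESeq2, 27 in limma-voom, 48 with only the 6 KO libraries and 20, 52 and 22 without KO 2 h replicates 1, 2 and 3. Depth limits the values of KO 2 h replicate 1 most: after Rn45s it held 2700912 counts, so 3 counts there equal 1.01 CPM. Its voom quality weight was 0.256, and that of KO 0 h replicate 1 was 0.174. These 2 libraries form the block of 1 animal, so the weights cannot tell which of them stands apart.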
